A study of Caenorhabditis elegans with 2 samples.

Results

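In embryos of Caenorhabditis elegans, 472 binding peaks of the homeodomain protein CEH-43 had their summit close to the start of a protein-coding gene and away from tRNA genes. They were chosen from the 998 peaks of the authors' thresholded list, of which 975 lay on nuclear chromosomes. A nuclear peak was taken when its summit lay within 1000 bp, on either side, of an annotated protein-coding transcript start and not within 100 bp of a tRNA gene. Of the other nuclear peaks, 154 lay at tRNA genes and 349 were distal, farther than 1000 bp from every such start. At the edge of the rule, the peak at mrpl-23 (signal 278) lay 997 bp from the start and was kept, and the peak at T27A3.8 (signal 433) lay 1003 bp away and was left out. The start-proximal peaks gathered just upstream of starts and held many head-to-head gene pairs, and fewer of them carried the Distal-less core word than of the distal peaks.

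Binding was measured by chromatin immunoprecipitation with sequencing (ChIP-seq) in 2 biological replicates of 1 group. All animals were of strain OP699, which carries the unc-119 allele tm4063 and the transgene wgIs699, in which ceh-43 is joined to TY1, EGFP and 3xFLAG tags beside a working copy of unc-119, so the precipitated protein came from the transgene. Egg bleaching gave whole embryos of both sexes and mixed stage, labelled as 3 hours old, whose chromatin was broken by sonication into pieces of 200 to 800 bp for precipitation through the GFP tag. Cell types were therefore pooled, and embryos without the tag were not analysed here. Every value below is a property of peaks, which are not replicates of the embryos: tests compare peaks with peaks, and the spread between cultures was not measured beyond these replicates.

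CEH-43 belongs to the Distal-less family, whose homeodomains read the core TAATTR (R is A or G, so TAATTA or TAATTG) and act in head, epidermal and neuronal fates, among them dopamine neurons. A promoter is the stretch next to a gene's start where transcription begins. Neighbouring genes transcribed away from each other share a divergent promoter, and the gap between their starts can serve both. In C. elegans many annotated starts are sites where a spliced leader is joined to the RNA, and some genes sit in operons behind another gene, so transcription can begin well upstream of an annotated start.

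The windows of 50 bp to each side of the summit are shown for 6 of the 8 start-proximal peaks of highest signal that held the core word, because the word is what CEH-43's family is known to bind. Sequences are RefSeq, WBcel235, forward strand, from windows that hold no annotated exon, and capitals mark the core word on either strand (from the other strand TAATTG reads as CAATTA). F39G3.3, a histone methyltransferase gene in RefSeq, had its summit 310 bp upstream of the start and outside genes, in the window chrV:4731551-4731651. The window upstream of swsn-3, which encodes an HMG box protein of the SWI/SNF family, is chrIII:2768826-2768926, 197 bp upstream of the start and in an intron of a protein-coding gene. The window of Y48C3A.18, a threonylcarbamoyl-AMP synthase gene in RefSeq, is chrII:13414284-13414384, 354 bp downstream of the start and in an intron. That of mog-5, a helicase of pre-mRNA splicing, is chrII:5399325-5399425, between the starts of mog-5 and fbxl-3. That of spat-1, the Aurora borealis protein of mitotic kinase activation, is chrII:14528476-14528576, between spat-1 and F57C2.5. The window of cutl-21, a zona pellucida domain gene, is chrX:1005147-1005247, 860 bp downstream of the start and in an intron.
F39G3.3: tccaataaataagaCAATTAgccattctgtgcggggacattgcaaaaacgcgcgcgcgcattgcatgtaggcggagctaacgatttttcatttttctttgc
swsn-3: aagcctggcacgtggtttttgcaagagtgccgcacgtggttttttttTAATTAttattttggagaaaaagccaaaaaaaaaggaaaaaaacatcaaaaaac
Y48C3A.18: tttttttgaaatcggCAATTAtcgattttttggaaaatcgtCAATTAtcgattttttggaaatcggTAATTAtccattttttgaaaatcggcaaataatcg
mog-5: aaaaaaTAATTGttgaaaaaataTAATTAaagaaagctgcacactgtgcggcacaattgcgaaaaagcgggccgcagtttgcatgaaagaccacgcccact
spat-1: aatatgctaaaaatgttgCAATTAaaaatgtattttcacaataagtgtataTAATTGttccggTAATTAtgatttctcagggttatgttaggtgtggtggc
cutl-21: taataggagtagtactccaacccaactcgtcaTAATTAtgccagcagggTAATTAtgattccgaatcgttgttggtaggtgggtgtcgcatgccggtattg
Of the 6 windows, those of Y48C3A.18 and spat-1 hold the word 3 times, mog-5 and cutl-21 hold it 2 times, and F39G3.3 and swsn-3 hold it 1 time. In the Y48C3A.18 window the 3 words lie in copies of a nearly identical repeated stretch. The F39G3.3 window also holds the CG-rich word described next. Over all 472 start-proximal peaks, 30.5% held the word. It was in 14.2% of windows of the same length centred 200 bp upstream of the starts of all 19973 nuclear protein-coding genes. Of 12795 weaker start-proximal peaks, below the threshold of the authors' list and described below, 25.4% held it. That share is closer to the 30.5% than the share of the promoter windows is.

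None of the 8 divergent peaks of highest signal held the core word, and 5 of them are shown because divergent promoters make up a large part of the start-proximal peaks. Capitals here mark CGCGCA or its reverse complement TGCGCG, a CG-rich word taken up because earlier results of these data had shown it at summits. It was in 4 of these 8 peaks. The window between atx-2, the ataxin-2 RNA-binding protein, and ecps-1, a proteasome component in RefSeq, is chrIII:10461265-10461365. That between nmad-1, a DNA demethylase in RefSeq, and hach-1, a mitochondrial hydrolase, is chrIII:5555077-5555177. That between rpl-15, a protein of the large ribosomal subunit, and K11H12.8 is chrIV:654875-654975. That between C16C10.4, a homologue of a histone deacetylase complex subunit, and rnf-121, a ubiquitin ligase, is chrIII:4171138-4171238. The window between tasp-1, a taspase homologue, and K01G5.10 is chrIII:10759188-10759288.
atx-2: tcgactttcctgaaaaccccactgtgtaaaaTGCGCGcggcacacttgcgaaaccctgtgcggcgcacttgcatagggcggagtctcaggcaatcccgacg
nmad-1: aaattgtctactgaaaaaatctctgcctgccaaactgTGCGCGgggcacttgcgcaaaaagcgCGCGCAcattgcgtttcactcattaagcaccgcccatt
rpl-15: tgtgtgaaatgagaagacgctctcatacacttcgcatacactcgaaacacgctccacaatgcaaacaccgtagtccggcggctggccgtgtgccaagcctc
C16C10.4: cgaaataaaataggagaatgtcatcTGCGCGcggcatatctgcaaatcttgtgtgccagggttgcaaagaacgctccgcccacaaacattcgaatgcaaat
tasp-1: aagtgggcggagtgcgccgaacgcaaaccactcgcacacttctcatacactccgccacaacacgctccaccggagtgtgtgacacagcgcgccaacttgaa
The nmad-1 window holds 2 copies of the CG-rich word and the atx-2 and C16C10.4 windows 1 each, while the rpl-15 and tasp-1 windows hold none of the words tested. Over all start-proximal peaks 17.4% held it, against 2.39% of the windows at all promoters. A match is a run of letters and not a measured contact.

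Start-proximal summits were concentrated in the 400 bp next to the start on its upstream side. The median position was 185 bp upstream, and 393 of the 472 summits (83.3%, 95% interval 79.6 to 86.5%) lay upstream. The fullest bin of 100 bp, between 100 and 200 bp upstream, held 113 peaks, and 295 (62.5%) lay within 400 bp upstream. Downstream of the start the numbers dropped at once: 24 summits lay in the first 100 bp, 7 in the next 100 bp, and none from 400 to just under 500 bp. Because upstream and downstream sequence within the limit is not equally plentiful, densities were taken over the base pairs whose nearest start lies at that distance. Upstream sequence made up 46.4% of them and held 20.6 peaks per Mb, against 3.58 peaks per Mb downstream. The density was 48.0 per Mb in the fullest bin, 32.2 per Mb over the nearest 400 bp upstream, and 9.86 per Mb from there to 1000 bp upstream.

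**Figure D1:**
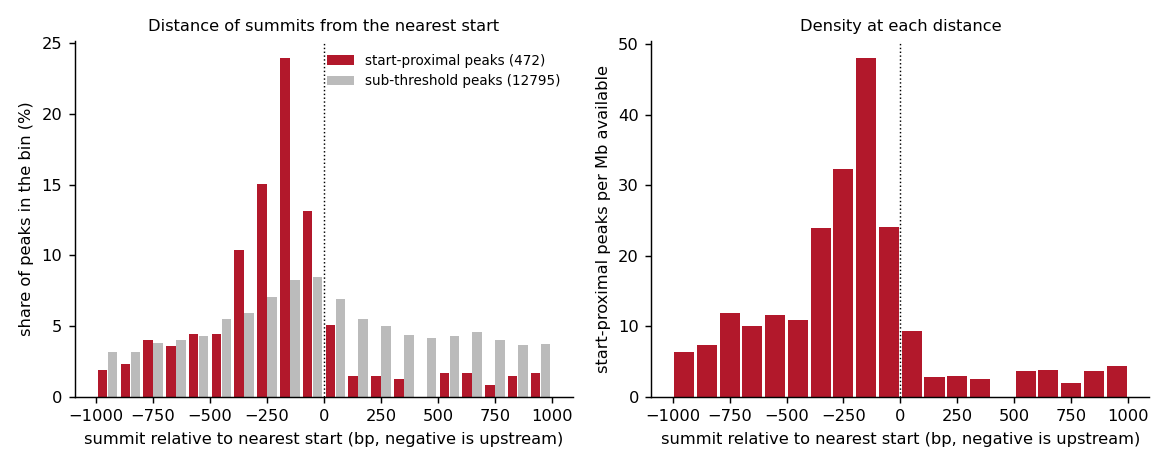
Left, the share of start-proximal peaks (red, 472) and of sub-threshold start-proximal peaks (grey, 12795) in bins of 100 bp by the summit's distance from the nearest start; right, start-proximal peaks per Mb of sequence at each distance. The red bars are tallest between 100 and 200 bp upstream, with 23.9% of peaks against 8.25% of sub-threshold peaks, and the density there is 48.0 per Mb.

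The same places were less favoured by weaker peaks. The relaxed list from both replicates held 12795 sub-threshold start-proximal peaks, outside tRNA genes and with no summit within 100 bp of a thresholded peak. Their signal was at most 139.3, which is where the thresholded list begins. Whether they are binding or background was not tested. Of the start-proximal peaks 83.3% lay upstream of the nearest start, against 53.7% of sub-threshold peaks (Fisher's exact test, 2-sided, Benjamini-Hochberg over 16 tests, adjusted exact p = 3.68e-39). Within 250 bp of the start lay 53.4% (252 of 472), against 35.3% of sub-threshold peaks (adjusted exact p = 2.36e-14). Both differences held under every alternative tried, but their size depended on which weaker peaks were taken. Among the 1003 sub-threshold peaks that rank next after the thresholded list, 69.3% lay upstream (adjusted exact p = 1.05e-07) and 43.9% within 250 bp (adjusted exact p = 0.0026). Within the start-proximal peaks themselves, signal and distance were hardly related (Spearman rho −0.06 across 472 peaks, which share the same 2 libraries). The median signal was 182 within 250 bp, 185 over 250 and up to 500 bp, and 172 over 500 bp.

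Most start-proximal summits fell outside gene bodies. Of the 472, 301 (63.8%) lay outside genes, 85 (18.01%) in an intron of a protein-coding gene and 86 (18.2%) in an exon of some annotated gene, non-coding genes included. This share went with the side of the start: 294 of 393 upstream summits (74.8%) lay outside genes, against 7 of 79 downstream ones (8.86%). Of the downstream summits 35 lay in introns and 37 in exons, where sequence past a start mostly lies. The share of all sequence within the limit that is outside genes was not computed, so 63.8% has no reference here. Starts with a gene end on the same strand within 500 bp upstream, the spacing seen inside operons, were nearest to 14.2% of start-proximal peaks and to 15.8% of sub-threshold peaks (adjusted exact p = 0.453; intervals 11.2 to 17.7% and 15.2 to 16.5%). No difference was detectable over all promoter types at this number of peaks. By the types defined below, such a start was nearest to 0 of 145 divergent, 17.6% of 290 single and 43.2% of 37 multiple peaks. The 0 is largely set by the definition, since the gene upstream of a divergent start lies on the other strand. Divergent peaks are a larger share of start-proximal than of sub-threshold peaks, and the comparison was not made within promoter types. The shares over all types therefore cannot show whether such starts differ within a type.

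Head-to-head gene pairs carried far more of these peaks than their share of the sequence within 1000 bp of starts. A peak was called divergent when starts of 2 genes pointing away from each other both lay within 1000 bp of the summit, single when starts of 1 gene did, and multiple for the rest. By this count 145 of the 472 peaks (30.7%, 26.6 to 35.1%) were divergent, 290 (61.4%) single and 37 (7.84%) multiple. Positions that would be called divergent made up 7.46% of the base pairs within the limit, so the density was 47.2 peaks per Mb at divergent positions, against 8.09 at single and 16.5 at multiple positions. Of the sub-threshold peaks 9.65% were divergent, and the difference from the start-proximal peaks was larger than counting error over peaks (adjusted exact p = 1.82e-34) under every alternative tried. Among the 1003 sub-threshold peaks next after the thresholded list the divergent share was 18.8%, a smaller difference (adjusted exact p = 5.52e-06).

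Region by region, head-to-head regions also held these peaks more often than tandem ones. Of 2495 head-to-head intergenic regions of at most 2000 bp, 140 (5.61%) held a start-proximal summit. Of 7291 tandem regions, between genes on the same strand, 95 (1.3%) did. Of 2161 tail-to-tail regions, between gene ends, 4 (0.185%) did. Per length, this came to 71.8, 20.3 and 3.43 peaks per Mb. A head-to-head region has a start at both ends and a tandem region at 1 end, so the numbers per start lie closer together than those per region. A tail-to-tail region has a start at neither end, and peaks were chosen by their distance to a start. Its low numbers are therefore largely set by the rule and say little about binding there.

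Inside divergent promoters the summit usually lay between the starts, at any part of the gap. The starts were 513 bp apart at the median (lowest 82 bp, highest 1899 bp), and 71 of the 145 pairs (48.97%) were at most 500 bp apart. The summit lay between them in 131 of 145 peaks (90.3%). The nearer start was 153 bp away at the median and the farther start 378 bp. Of the 131 summits between starts, 64 (48.9%) were in the central part of the gap, when it is cut into 3 equal parts, and the rest in its outer parts. The strongest were of both kinds. At ears-2, a mitochondrial glutamyl-tRNA synthetase gene, the gap to uncp-18 was 92 bp and the summit lay 25 bp from the ears-2 start. At the idhg-1 and mlcd-1 pair, genes of isocitrate oxidation and malonyl-CoA breakdown, the gap was 667 bp and the summit lay 43 bp from the idhg-1 start. The atx-2 and ecps-1 pair was alike, with the summit 74 bp from the start of atx-2 in a gap of 838 bp. At nmad-1 and hach-1 the summit was in the central part, 193 bp from nmad-1 and 323 bp from hach-1. The 8 divergent peaks of highest signal also included spe-48 with Y51F10.11 (signal 508), tasp-1 with K01G5.10 (493), rpl-15 with K11H12.8 (493) and C16C10.4 with rnf-121 (438).

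**Figure D2:**
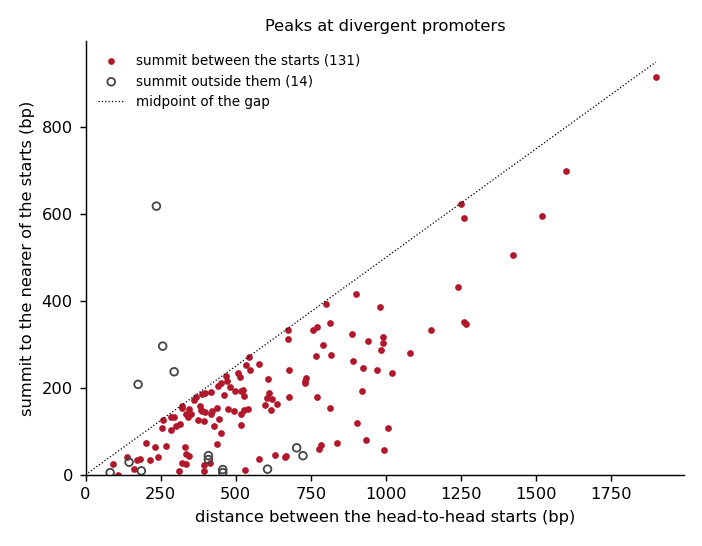
Each point is a divergent peak, by the distance between the head-to-head starts (x axis, bp) and the distance of the summit from the nearer start (y axis, bp); filled points have the summit between the starts, open points outside them, and the dotted line marks the midpoint of the gap. The filled points spread from the line down to 0, with a median of 153 bp to the nearer start.

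The Distal-less core word was less frequent at start-proximal than at distal summits. It lay within 50 bp of the summit in 144 of 472 start-proximal peaks (30.5%, 26.4 to 34.9%), against 165 of 349 distal peaks (47.3%, 41.9 to 52.7%; Fisher's exact test, adjusted exact p = 4.14e-06). The sign and the call held under all 15 alternatives tried. The CG-rich word went the other way, with 82 start-proximal peaks (17.4%, 14.1 to 21.1%), against 34 distal peaks (9.74%, 6.84 to 13.3%; adjusted exact p = 0.00722). That call was lost when start-proximal meant within 2000 bp (adjusted exact p = 0.0915) and when the word window was 100 bp (adjusted exact p = 0.0604). GAGAGA, a promoter word, was found in 12.7% of start-proximal and 17.8% of distal peaks (adjusted exact p = 0.0949). The words were more frequent at start-proximal summits than in the neighbourhood: in windows centred 500 bp to each side of them the core word was in 10.5%, the CG-rich word in 1.17% and GAGAGA in 6.89%. At sub-threshold start-proximal summits these shares were 25.4%, 2.95% and 6.98%. Of the words' occurrences in the windows at start-proximal summits, 60.3% for the core word, 75% for the CG-rich word and 45.3% for GAGAGA lay within 25 bp of the summit. Words spread evenly over a window of 50 bp to each side would have about 50% there. Within the window GAGAGA was therefore not gathered at the summit, and the core word only moderately. The CG-rich word was taken up because earlier results of these data had shown it at summits. Its excess over the neighbourhood and its closeness to the summit were therefore partly set by that choice.

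Both words also varied with distance inside the start-proximal peaks. The core word was in 24.6% of peaks within 250 bp (19.4 to 30.4%), 23.9% over 250 and up to 500 bp (16.2 to 32.97%), and 50.5% over 500 bp (40.8 to 60.1%). The last share is close to that of the distal peaks, 47.3%. The CG-rich word was in 22.6%, 13.8% and 9.01% of the same 3 classes. Downstream of the start the core word was in 36 of 79 peaks (45.6%, 34.3 to 57.2%), against 108 of 393 upstream (27.5%, 23.1 to 32.2%). These splits are descriptions, made without a test. The words seldom met: 12 peaks held both. Base composition moved with the core word, since the windows with it had a median GC content of 37.6% and those without it 49.5%. The medians were 46.5% GC at start-proximal, 44.6% at distal and 36.6% at sub-threshold summits. The part of base composition in the word shares was not tested.

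**Figure D3:**
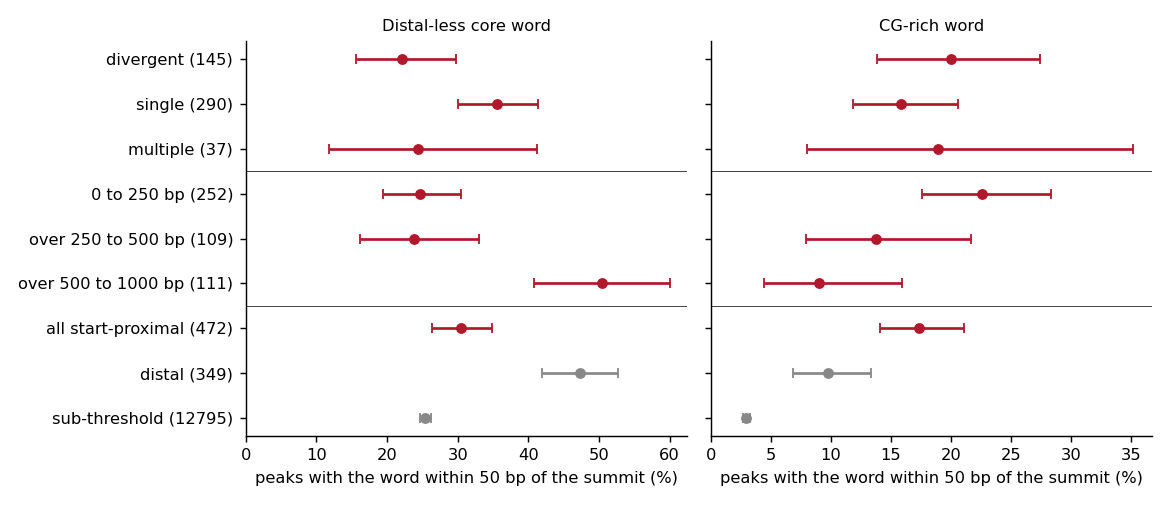
Share of peaks with the Distal-less core word (left) and the CG-rich word (right) within 50 bp of the summit; points are shares, bars are exact 95% intervals over peaks, red for start-proximal peaks by promoter type, by distance from the start and in all, grey for the distal and sub-threshold peaks. The core word is in 50.5% of start-proximal peaks over 500 bp from the start and the CG-rich word in 9.01%.

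Divergent promoters held the core word less often than single ones, but this difference moved with distance. The core word was in 32 of 145 divergent peaks (22.1%, 15.6 to 29.7%), against 103 of 290 single peaks (35.5%, 30.01 to 41.3%; adjusted exact p = 0.0114). Divergent summits were also closer to a start, with a median of 153 bp, against 318 bp for single summits. With the limit set to 500 bp, the shares were 19.2% of 99 divergent and 26.2% of 252 single peaks (adjusted exact p = 0.425). The call was lost in 8 of 16 alternatives in all, and it rested on replicate 1. With the strongest 998 peaks of replicate 2 alone, the shares were 18.1% of divergent and 22.95% of single peaks (adjusted exact p = 0.388). With those of replicate 1 alone they were 23.7% and 44.04% (adjusted exact p = 0.000101). The CG-rich word (20% and 15.9%, adjusted exact p = 0.379) and GAGAGA (11.7% and 13.8%, adjusted exact p = 0.652) did not pass the test between divergent and single peaks. Nor did the share with signal above the median of start-proximal peaks (54.5% and 48.3%, adjusted exact p = 0.379), although it passed in either replicate taken alone, with 62.99% and 43.6% in replicate 2 (adjusted exact p = 0.000874) and 57.6% and 45.03% in replicate 1 (adjusted exact p = 0.0319).

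The replicates found nearly all of the start-proximal peaks. Of the 472, 460 had a summit within 100 bp in replicate 1, 464 in replicate 2, 453 in both and 1 in neither. Since the thresholded list was built from both replicates, a stricter count is the share that was among the 1996 strongest peaks of each replicate, which was 83.9% (396 of 472), against 81.7% of distal peaks (adjusted exact p = 0.457). For divergent and single peaks it was 87.6% and 82.4% (adjusted exact p = 0.336). Signal in the 2 replicates had a Spearman rho of 0.49 across the 453 shared start-proximal peaks, which passed a threshold on their combined signal. Peaks with the core word had a median rank of 568.5 in replicate 1 and 862 in replicate 2, with rho 0.20 over 138 peaks. Those without it had median ranks of 511 and 441, with rho 0.61 over 315 peaks. Those with the CG-rich word were all found in both replicates, at median ranks of 418.5 and 389, with rho 0.70 over 82 peaks. Signal differs between these groups, with a median of 166 for peaks with the core word and 193 for those without it. Over peaks ordered by signal and cut into 4 equal classes, rho was 0.63 in the class of highest signal, and −0.42, −0.72 and −0.86 in the classes below it. The cut was on the signal from both replicates together. Within a narrow class, a higher value in 1 replicate must then go with a lower value in the other. These class values therefore cannot show whether agreement between replicates moves with signal. The difference in rho between peaks with and without the word was not tested, and neither was the part of signal in it. When each replicate's own strongest 998 peaks were put through the same rule, the core word was in 37.6% of 473 start-proximal peaks of replicate 1 and 20.8% of 462 of replicate 2, while the CG-rich word was in 16.5% and 16.7%. Start-proximal shares of the core word were below distal ones in either replicate, with 37.6% against 56.0% in replicate 1 and 20.8% against 37.5% in replicate 2.

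**Figure D4:**
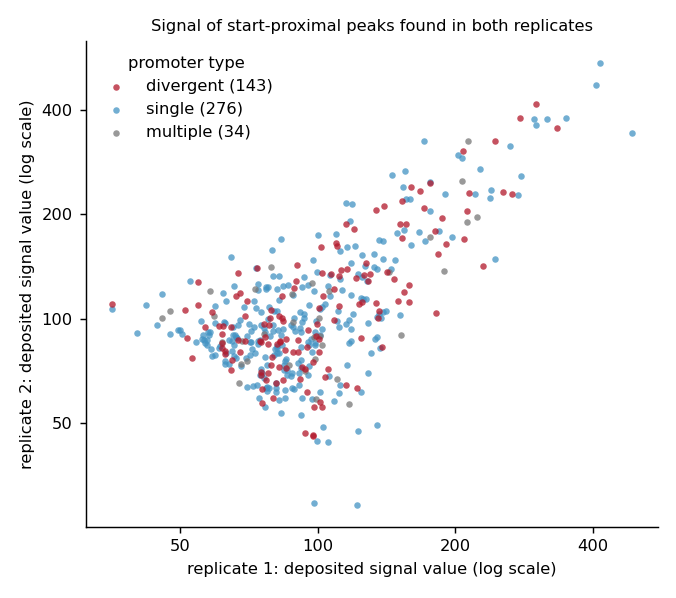
The authors' signal value of each start-proximal peak found in both replicates, replicate 1 on the x axis and replicate 2 on the y axis (both log scales), coloured by promoter type (143 divergent, 276 single, 34 multiple). Strong peaks lie along the diagonal and weaker ones scatter widely, with rho 0.49 over all. The peaks had passed a threshold on their combined signal, so this scatter cannot show whether agreement between replicates moves with signal.

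Higher signal went with fewer core words and more CG-rich words. In the 118 start-proximal peaks of highest signal the core word was in 20 (16.9%), and in the 118 of lowest signal in 48 (40.7%). The CG-rich word was in 30 (25.4%) and 11 (9.32%) of the same peaks. Divergent peaks were 46 of the strongest 118 and 33 of the weakest. Signal of start-proximal peaks ran from 139.3 to 959.8 with a median of 182, against a median of 178 and a highest value of 1516 for distal peaks. The share above the median of both kinds was 50.8% and 48.7% (adjusted exact p = 0.611), but it passed in replicate 2 alone, with 53.9% against 45% (adjusted exact p = 0.0276).

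The strongest start-proximal peaks ranked near the top in both replicates. The first (signal 959.8) lay 650 bp upstream of sre-23, a chemoreceptor gene, with signal 415 in replicate 1 (rank 23) and 543 in replicate 2 (rank 14). It also lay within 100 bp of a snoRNA gene. The next lay 486 bp upstream of K12H4.5 (signal 874), an uncharacterised gene, with 406 in replicate 1 (rank 25) and 470.3 in replicate 2 (rank 17). The ftt-2 peak, 550 bp upstream of a 14-3-3 adaptor gene, had 487 in replicate 1 (rank 19) and 342 in replicate 2 (rank 31). At the atx-2 promoter signal was 300 in replicate 1 (rank 36) and 415 in replicate 2 (rank 18). By rank, ftt-2 stood higher in replicate 1 and the other 3 in replicate 2. Ranks are compared because the scale of the signal can differ between the replicates' lists. The nmad-1 promoter had 333 in replicate 1 (rank 30) and 354 in replicate 2 (rank 29). F39G3.3, the strongest with the core word (signal 587), had 264 in replicate 1 (rank 46) and 314 in replicate 2 (rank 40). swsn-3 (signal 537) had 278 in replicate 1 (rank 42) and 258 in replicate 2 (rank 64). The next with the core word were egg-5 (signal 445), Y48C3A.18 (405), C37A2.8 (383), cutl-21 (372), mog-5 (364) and spat-1 (349), at ranks from 74 to 114 in replicate 1 and from 89 to 183 in replicate 2. Ranks are among 29979 peaks of replicate 1 and 26127 of replicate 2. The others among the 20 strongest were T02E1.2, cfim-2, Y43F8C.7, rpl-3, ears-2, idhg-1, T13C5.6, spe-48, K05C4.2, twk-5, ints-8, mpk-2 and tasp-1, with signal from 493 to 728.

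Some of these strong peaks also lay close to small RNA genes, and which gene they act on was not tested. Within 100 bp of a snoRNA, snRNA or rRNA gene lay 28 of the 472 start-proximal summits (5.93%), 18 of them among the 118 of highest signal. They include the peaks named for sre-23, T02E1.2, cfim-2, Y43F8C.7, twk-5, mpk-2 and egg-5. Their median signal was 280, against 180.0 for the other 444, and 2 of the 28 held the core word. Without them the shares compared above moved by little: the core word was in 32.0% of start-proximal peaks and 31.8% were divergent.

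By gene, 650 of 19973 nuclear protein-coding genes (3.25%) had a start within 1000 bp of a start-proximal peak and are called bound below. This is a statement of distance, since a divergent peak is given to both of its genes. Of the 650, 459 were the gene with the nearest start, 188 (28.9%) had a peak with the core word and 120 (18.5%) had a peak with the CG-rich word. Genes were grouped into 36 lists by name, which took in 144 of the bound genes, and no list was tested for enrichment.

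Genes of protein synthesis were bound in many cases, and none of those bound had the core word. Of 82 ribosomal protein genes, 20 (24.4%, against 3.25% of all genes) were bound, 12 of them as the gene with the nearest start. All 20 peaks lacked both the core word and the CG-rich word, and 13 were divergent. The strongest were at rpl-3 of the large subunit (signal 664, 301 in replicate 1 and 362 in replicate 2), rpl-15 (signal 493, 254 and 231) and rps-28 of the small subunit (signal 432, 223 and 196). Of 72 translation factors and tRNA synthetases, 8 (11.1%) were bound. Among them ears-2 had signal 662, eif-3.C, an initiation factor subunit, had 459, and iff-2, an eIF5A gene, had 222. The CG-rich word was at 3 of the 8 and the core word at none.

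Genes of protein quality control were bound above 3.25% as well. Of 33 proteasome subunit genes, 7 (21.2%) were bound. The strongest were rpn-7 (signal 301), rpt-3 (219) and pbs-4 (186), and rpt-3 and rpn-6.1 had the core word. At pbs-4 the replicates disagreed, with signal 135 in replicate 1 (rank 224) and 49.5 in replicate 2 (rank 4829). Of 69 genes for 14-3-3 proteins, chaperones and heat shock proteins, 9 (13.0%) were bound, none with the core word and 4 with the CG-rich word. ftt-2 carried 2 peaks (signal 825 and 428) whose summits were 202 bp apart. The J-domain gene dnj-29 had signal 415 and the Hsp70 gene hsp-1 had 393. At hsp-1 signal was 244 in replicate 1 (rank 53) and 148 in replicate 2 (rank 217), so it ranked higher in replicate 1.

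Mitochondrial and RNA genes followed. Of 45 genes of the respiratory chain and ATP synthase, 8 (17.8%) were bound, with cox-5A (signal 268.5), cox-5B (245) and cox-6B (212), all of cytochrome c oxidase, at the top. cox-5A had the core word, and 3 of the 8 had the CG-rich word. Of 82 splicing and RNA-binding genes, 10 (12.2%) were bound, 5 as the gene with the nearest start. After atx-2 (716) came snr-1, an Sm protein of the spliceosome (319), and the neighbours rsp-1 and rsp-2, SR splicing factors that share a divergent peak (194). rnp-6, rsp-8 and sap-140 had the core word.

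Histone genes, cell cycle genes and the cytoskeleton were bound above the share of all genes too. Of 82 histone genes, 9 (10.98%) were bound, through 7 peaks. Copies of histone genes are nearly identical, so reads from 1 copy can be placed at another and these assignments are uncertain. The strongest lay between his-67 and his-68 (signal 365, 230 in replicate 1 and 142 in replicate 2). Of 95 cell cycle genes, 12 (12.6%) were bound and 5 had the core word. cdc-48.1, a segregase of ubiquitinated proteins, had signal 378, sas-4, a centriole component, 252, and cdk-9, a kinase of transcription elongation, 242. The core word was at cdc-25.2, knl-2, mcm-10, cdk-5 and spd-1. Of 81 actin, tubulin and motor genes, 11 (13.6%) were bound, led by the kinesin klp-6 (418), the alpha tubulin tba-7 (329) and the kinesin klp-18 (214). act-4, an actin gene, was the only member of the list with the core word.

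Lists of developmental regulators lay on both sides of the 3.25% of all genes. Of 103 homeobox genes, 1 (0.971%) was bound. It was ceh-58, with the core word and a summit 217 bp upstream (signal 193, 118 in replicate 1 and 86.4 in replicate 2). Of 12 GATA factor genes, 2 (16.7%) were bound, and both peaks had the core word. That of egl-27 lay 555 bp downstream of its start (signal 305, 139 in replicate 1 and 167 in replicate 2). That of elt-1, the regulator of epidermal fate, lay 244 bp upstream (signal 162, 82.5 in replicate 1 and 79.8 in replicate 2). With lists this short a single gene moves the share a long way. Of 15 Sox and HMG genes, 3 (20%) were bound, hmg-1.2 (signal 189), hmg-11 (154, with the core word) and hmg-4 (150.0), and 1 of them was the gene with the nearest start. The hmg-1.2 peak had no summit within 100 bp in replicate 1 and rank 375 in replicate 2. That of hmg-11, shared with clec-140, had rank 463 in replicate 1 and rank 3123 in replicate 2. Of 40 bHLH genes, 1 (2.5%) was bound, mdl-1, a Mad-like repressor (214). Of 274 nuclear hormone receptor genes, 4 (1.46%) were bound, with nhr-47 (235), nhr-48 (186) and nhr-142 (150) the strongest.

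Signalling and adhesion lists also lay on both sides of 3.25%. Above it were the Wnt, cadherin, axon guidance and adhesion, and kinase and small GTPase lists. Below it were the hedgehog-related and patched-related list (2.33%) and the neuropeptide and insulin list (1.37%). The Notch and TGF-beta lists had no bound gene. Of 31 Wnt pathway genes, 3 (9.68%) were bound. The receptor genes mom-5 (signal 195) and lin-17 (147) had the core word, 741 bp upstream and 906 bp downstream of their starts. The Dishevelled gene mig-5 (145) did not, and shares its peak with the chaperonin gene cct-1. That peak stood at rank 7319 in replicate 1 and at rank 399 in replicate 2. Of 12 cadherin genes, 2 (16.7%) were bound, cdh-4 (192) and fmi-1, the Flamingo homologue (168), both with the core word and both over 600 bp upstream. At fmi-1 signal was 106 in replicate 1 (rank 392) and 44.1 in replicate 2 (rank 7217). Of 72 axon guidance and adhesion genes, 3 (4.17%) were bound: igcm-3 (189) and zig-10 (173), which have immunoglobulin domains and the core word, and lam-1, a laminin chain gene (180). Of 84 kinase and small GTPase genes, 5 (5.95%) were bound, led by mpk-2 (495), arf-6 (180) and kin-29 (170), none with the core word.

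Cuticle, secreted and large receptor families were near or below 3.25%. Of 46 cuticlin and zona pellucida genes, 2 (4.35%) were bound, cutl-21 (signal 372, 184 in replicate 1 and 179 in replicate 2) and cut-2 (144). Of 86 hedgehog-related and patched-related genes, 2 were bound, wrt-3 (402, within 100 bp of a snoRNA gene) and wrt-5 (180.2). Of 176 collagen genes, 1 was bound (col-71, 143), and of 40 astacin metalloprotease genes, 1 (dpy-31, 160, with the core word). Of 146 neuropeptide and insulin genes, 2 were bound (ins-13, 228, and nlp-4, 166), and of 223 ion channel genes, 2 (twk-5, 496, and cng-1, 167). The ins-13 peak stood at rank 7308 in replicate 1 and at rank 432 in replicate 2. Of 1310 chemoreceptor genes, 6 (0.458%) were bound, with sre-23 (959.8), sre-1 (423) and sri-5 (268.5) the strongest. Of 445 genes for F-box, MATH and BATH proteins, 6 (1.35%) were bound, led by math-33 (334.5), fbxc-44 (274) and fbxb-85 (239.8). At the peaks of math-33, fbxc-44 and fbxb-85 another gene had the nearest start, and 2 of the list were bound as the nearest. Of 240 C-type lectin genes, 3 (1.25%) were bound, clec-53 (301), clec-140 (154) and clec-266 (151), and of 141 cytochrome P450 and UDP-glucuronosyltransferase genes, 1 (ugt-50, 156). In 8 lists none was bound: T-box factors (22 genes), ETS factors (9), the Notch pathway (20), the TGF-beta pathway (19), epidermal junction and morphogenesis genes (46), innexins (25), synaptic vesicle genes (50) and dopamine synthesis and transport genes (12). Counts of 0 this small allow shares of up to 15.4% for T-box genes, 26.5% for dopamine genes and 7.71% for epidermal junction genes (exact 95% limits).

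**Figure D5:**
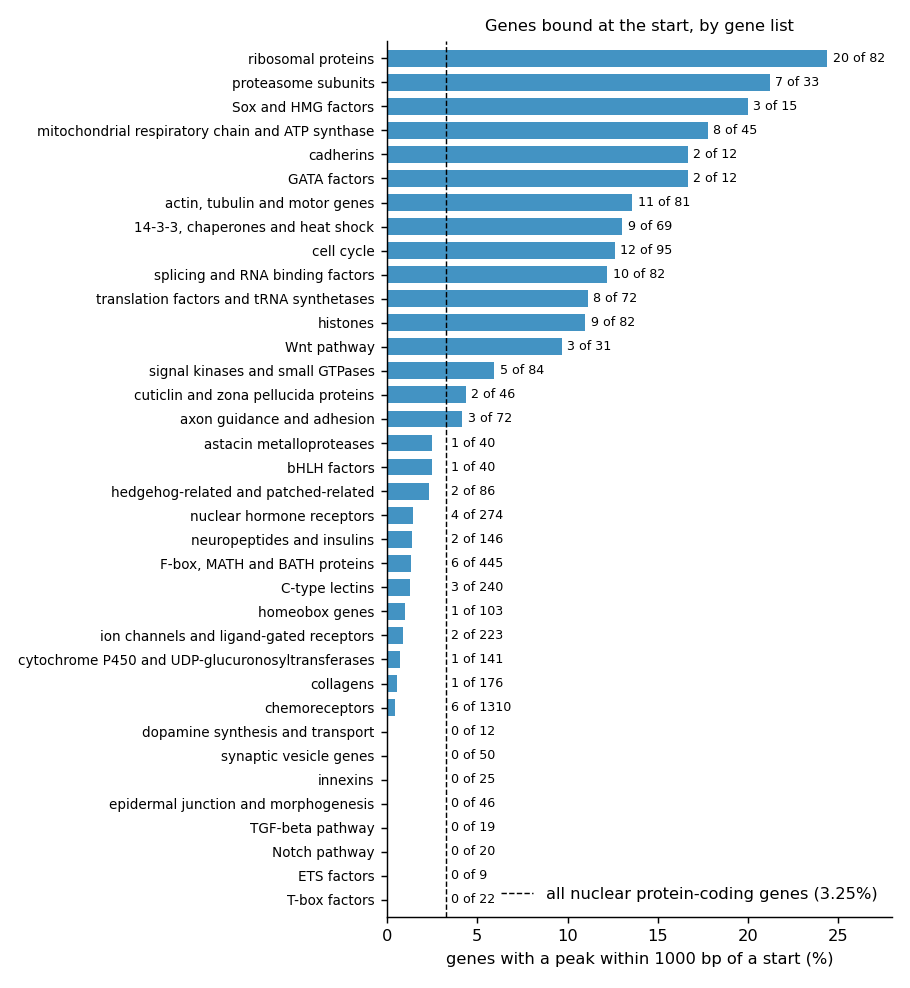
Share of genes in each of 36 lists with a start within 1000 bp of a start-proximal peak; the count of genes is beside each bar and the dashed line is the share of all nuclear protein-coding genes, 3.25%. Ribosomal protein genes are at the top with 24.4% and 8 lists are at 0.

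CEH-43's own gene, the partner genes ast-1, ceh-20 and unc-62, and dat-1 had no start-proximal peak. The nearest thresholded summit to a ceh-43 start lay 1274 bp upstream (signal 1356), outside the limit. The transgene carries ceh-43 as well, so reads placed at this locus can come from the transgene, and its part in this signal was not tested. The nearest summit for ast-1, an ETS factor, lay 4899 bp downstream (signal 163) and that for ceh-20, a PBX factor, 7783 bp upstream (signal 172). For unc-62, the Meis factor, and dat-1, the dopamine transporter gene, the nearest summits were 108753 and 138733 bp away.

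More than 1 start-proximal peak was found at 17 of the 650 bound genes. After ftt-2 the highest summed signals were at cfim-2, an RNA recognition motif gene (683 and 168), ints-8 of the Integrator complex (495 and 195), the dnj-29, ndua-2 and fld-1 cluster, which shares both peaks (415 and 264), sto-4, a stomatin gene (307 and 174), and spat-3, a ubiquitin ligase gene (289 and 154.5). Their summits were 199 to 211 bp apart. In the deposited lists no summits of start-proximal peaks lay closer than 199 bp, and the closest sub-threshold pair was 199 bp apart as well, so a finer spacing would not appear in these data. Farther apart were the peak pairs of T24B8.3 (1373 bp), hil-7, a linker histone gene (1072 bp), and daf-19, an RFX factor gene (5878 bp).

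Start-proximal peaks were unevenly shared among chromosomes. Per 1000 protein-coding genes there were 35.2 on chromosome III, 31.6 on chromosome I, 25.2 on chromosome II, 24.9 on chromosome X, 20.7 on chromosome IV and 13.0 on chromosome V, from 65 to 93 peaks each. On chromosome X lay 14.4% of start-proximal peaks, against 20.1% of distal peaks (adjusted exact p = 0.0861), a difference that passed the test in 4 of 11 alternatives. In the central part of autosomes, the middle 50% of their length, lay 59.9% of autosomal start-proximal peaks (242 of 404), against 54.8% of distal ones (153 of 279; adjusted exact p = 0.336).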

How the data were processed

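CEH-43 ChIP-seq was measured in 2 biological replicates of 1 group of embryos. Each narrowPeak list gives intervals, summits and a signal value that the authors deposited. Its scale, and the aligner, peak caller, irreproducible discovery rate cutoff and control behind it, are not given in the sources read, and read depth is unknown. Coordinates are on ce11, per the labels, and are printed 1-based. Genes came from Ensembl release 115 on WBcel235 and sequences from the RefSeq copy. Each word was looked for in both orientations, up to 50 bp from a summit. Shares were compared by 2-sided Fisher's exact tests over peaks with Benjamini-Hochberg adjustment over 16 tests (threshold 0.05) and have exact Clopper-Pearson 95% intervals, which cover counting error over peaks only (SciPy 1.17.1, NumPy 2.4.6, Python 3.11.15, matplotlib 3.10.9; the tests were checked on simulated data). Members and lists were chosen with earlier results of these data known. Genes named are those at the 20 strongest peaks, up to 3 per list, the 8 strongest divergent peaks and the 8 strongest with the core word, up to 8 genes with the most peaks, and ceh-43, ast-1, ceh-20, unc-62 and dat-1. Other genes named were picked after their values were seen. Alternatives changed the start distance, the tRNA distance, the starts used, the replicates, the strength of peaks, the windows, the words and the shared-summit distance.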

Additional observations from a re-analysis of the deposited data

How the results depend on the processing

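Higher upstream, near-start and divergent shares than at sub-threshold peaks, and the lower core word share than at distal peaks, kept direction and call under every alternative run. Against only the sub-threshold peaks next after the list, the upstream, near-start and divergent shares of those were 69.3%, 43.9% and 18.8%. With the limit at 500 bp, start-proximal peaks were 11.6% on chromosome X, against 20.9% of distal peaks (adjusted exact p = 0.00127), 57.4% against 58.2% lay in the central 50% of autosomes, and the core word was in 19.2% of divergent and 26.2% of single peaks. At 2000 bp the CG-rich word was in 15.7% against 10% of distal peaks, and with a window of 100 bp in 22.5% against 16.1%. With peaks at tRNA genes kept, 16.98% against 27.1% were on chromosome X (adjusted exact p = 0.000556), 83.8% against 84.0% were among the strongest of both replicates, and 48.5% against 51.7% had signal above the median. The core word share at divergent, against single, promoters no longer passed with 1 start per gene (22.1% and 33.3%), tRNA peaks kept (21.5% and 31.2%), peaks among the strongest of both replicates only (22.05% and 32.6%), a window of 25 bp (14.5% and 23.8%) or TAATTA alone (11.7% and 20.3%). Of the stronger part of the thresholded peaks, 217 were start-proximal, 72 of them divergent, and GAGAGA was in 13.9% of divergent and 10% of single peaks. With summits shared within 50 bp, 68.97% of divergent and 69.3% of single peaks were among the strongest of both replicates. Within 200 bp these were 88.3% of each, and 88.1% of start-proximal against 88.2% of distal peaks. Leaving out each replicate in turn, start-proximal peaks on chromosome X were 13.3 to 15.8%, against 16.7 to 20.4% of distal peaks, and those with signal above the median 50.95 to 53.9%, against 45 to 48.7% (passing without replicate 1). The core word was in 18.1 to 23.7% of divergent and 22.95 to 44.04% of single peaks, with the call lost without replicate 1, and signal above the median in 57.6 to 62.99% of divergent and 43.6 to 45.03% of single peaks. Added once the data had been seen were alternatives without peaks at small RNA genes (15.3% against 22.3% on chromosome X, adjusted exact p = 0.0384) and with upstream peaks only (core word in 20.8% of divergent and 32.2% of single peaks, adjusted exact p = 0.0673). By the nearest start only, 459 of 19973 genes (2.30%) were bound. By that count 12 ribosomal protein genes, 5 histone genes, 5 splicing genes, 4 chaperone genes, 1 Sox and HMG gene and 0 collagen genes were bound. So were 7 actin, tubulin and motor genes, 3 kinase and small GTPase genes and 2 F-box, MATH and BATH genes. The hedgehog-related and the neuropeptide and insulin lists kept 1 bound gene each. The cause was not tested.

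No paired analysis was possible because there is only 1 group of samples. Start-proximal peaks rest on annotated starts, some of which are splice sites. Distance does not show which gene a peak acts on. Signal tracks, reads and the control were not used here, so depth and background at each peak are unknown, and the 2 replicates limit what can be said of repeatability.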

Other observations

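A further word was noticed when the windows were read, and has no test. TTGCAA lay within 50 bp of the summit in 70 of 472 start-proximal peaks (14.8%), against 14 of 349 distal peaks (4.01%) and 697 of 12795 sub-threshold peaks (5.45%). It was in 35 of 145 divergent peaks (24.1%) and 31 of 290 single peaks (10.7%). Of peaks with the CG-rich word, 19 of 82 held it (23.2%). In the flanking windows 500 bp away it was in 5.30% and in the windows at all promoters in 5.32%. Of the 11 windows printed above, those of F39G3.3, swsn-3, spat-1 and C16C10.4 contain it.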
